A study of Mus musculus with 20 samples.

Results

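The genes described here are 38 mouse genes of the cell cycle and of DNA replication, chosen by name: 7 that act in G1, 15 that act in S phase and 16 that act in G2 or mitosis. They were followed in LβT2 cells given gonadotropin-releasing hormone (GnRH) in pulses or continuously. On the array used, 35 of the 38 genes had at least 1 probe set of their own, 49 probe sets of the 12488 in the table. Ccnb1 and Bub1b had none in the platform annotation, and Tyms was matched only by probe sets shared with its pseudogene, so these 3 genes are given no value. Ccnd2 lay between 36.6 and 93.0 intensity units and Mcm6 between 20.6 and 171 on the 20 arrays, below the limit for testing of 427 units on at least 2 arrays. The other 33 genes were tested, 6 of G1, 13 of S phase and 14 of mitosis. Of these, 31 were above the limit on all 20 arrays, and Ccnd1 and Rad1 fell below it on some.

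LβT2 is a mouse gonadotrope line, from a pituitary tumour of a mouse that carried SV40 T antigen under the luteinizing hormone beta promoter. It stands here as 1 tumour line that divides on its own. Cells on Cytodex 3 beads spent 16 to 18 h without serum, were loaded into columns and were then perifused for 4 h with medium alone (unstimulated) or with GnRH, the hypothalamic peptide that acts on gonadotropes. At 100 nM GnRH came as 1, 2, 4 or 8 pulses or as a constant (tonic) supply, and at 10 nM as 1, 4 or 8 pulses or as a tonic supply. Each pulse lasted 2 min, repeated pulses were 118, 58 or 28 min apart, and RNA was taken when the 4 h ended. Each of the 10 groups had 2 Affymetrix arrays. The letters A and D in the titles mark the unstimulated and 100 nM arrays, and B and C the 10 nM arrays. Below, a pair of signals gives A then D, or B then C.

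Values are linear MAS5 signals, set by the authors to a common level on each array (trimmed mean 2501.25 to 2501.75). With 2 arrays a group their number limits the precision. Nothing in the labels tells whether a pair of arrays stands for separate cultures, so the p-values speak for the spread of these samples alone, which may be technical. For 8 of the 20 arrays a further label gives a pulse number or pattern that contradicts the title, and titles were used. Every D array is among them. There the array titled unstimulated D is labelled tonic 100 nM, and that of 4 pulses of 100 nM D is labelled unstimulated. Which label is right was not tested. With groups from that other label, limma called 0 of the 33 genes in any comparison. The 12 arrays whose labels agree leave 1 array in each 100 nM group and 1 unstimulated array, too few for a check of these calls. The ratio of the 3′ to the 5′ Gapdh probe sets, a sign of RNA or cRNA length, was 1.69 on the array of 8 pulses of 100 nM A and 1.21 and 1.23 on the arrays of 4 pulses of 100 nM, against 0.900 to 1.08 on the other 17. Fits below without these 3 arrays hold no array of 4 pulses of 100 nM. They therefore average over other patterns than the main fit, and cannot tell the Gapdh ratio from the pattern. Of 7 gonadotrope markers 6 were above the limit for testing, and Fshb was below it (167 to 452 units). The summed signals of 4 macrophage and leukocyte markers (Ptprc, Cd68, Adgre1 and Csf1r) ran from 1229 to 1790.0 on the unstimulated arrays and from 1396 to 3920.1 at 100 nM. Cd68 was higher at 100 nM by 1.34 ± 0.24 on the log2 scale. Csf1r lay at 427 to 869 over the 20 arrays and Ptprc, which defines leukocytes, at 24.8 to 125. Of the other pituitary markers, Crhr1 was higher at 100 nM by 1.53 ± 0.29 and Prl differed by -1.27 ± 0.29, while Gh lay at 2141 to 3134 over the 20 arrays. Of the fibroblast and endothelial markers 0 of the 4 tested passed at 100 nM. The part of these markers in the results below was not tested.

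Cells pass from G1 into S phase when cyclin D with Cdk4, and then cyclin E with Cdk2, release E2F transcription factors from the retinoblastoma proteins, and E2F then drives the genes for nucleotide supply and for the MCM helicase that opens DNA. Later the genes of mitosis, among them cyclins A and B, Plk1 and the Aurora kinases, are switched on through factors such as B-Myb, FoxM1 and the CCAAT-binding factor NF-Y. Transcripts of many of these genes rise and fall within each cycle, and SV40 T antigen is known to bind the retinoblastoma proteins and p53. In a mixed population, fewer cells in a phase and less RNA per cell in that phase cannot be told apart.

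The promoters of 5 genes are shown because they stand for the directions seen in the data: Aurka, Ccnb2, Plk1 and Tk1 fell at 100 nM GnRH and Pcna rose. Each line is the 150 bases before the annotated start, from RefSeq (GRCm38.p6), read 5′ to 3′ on the gene's strand, with CCAAT and its reverse complement ATTGG, the letters that NF-Y binds, in capitals. They lie at chr2:172370571-172370720 (minus strand) for Aurka, chr9:70421555-70421704 (minus strand) for Ccnb2, chr7:122159285-122159434 (plus strand) for Plk1, chr11:117826015-117826164 (minus strand) for Tk1 and chr2:132253181-132253330 (minus strand) for Pcna.
Aurka: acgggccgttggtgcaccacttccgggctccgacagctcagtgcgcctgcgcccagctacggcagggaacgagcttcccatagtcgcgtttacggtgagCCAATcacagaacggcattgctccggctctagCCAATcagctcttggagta
Ccnb2: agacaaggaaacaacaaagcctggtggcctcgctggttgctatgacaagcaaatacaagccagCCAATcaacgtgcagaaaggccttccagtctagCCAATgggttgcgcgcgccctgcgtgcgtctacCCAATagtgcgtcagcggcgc
Plk1: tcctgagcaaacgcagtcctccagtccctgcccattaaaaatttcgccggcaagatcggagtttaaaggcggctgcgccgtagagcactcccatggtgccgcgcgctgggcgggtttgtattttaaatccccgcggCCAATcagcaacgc
Tk1: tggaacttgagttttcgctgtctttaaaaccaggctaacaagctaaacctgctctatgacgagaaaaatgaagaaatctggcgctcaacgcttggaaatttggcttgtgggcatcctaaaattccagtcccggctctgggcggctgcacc
Pcna: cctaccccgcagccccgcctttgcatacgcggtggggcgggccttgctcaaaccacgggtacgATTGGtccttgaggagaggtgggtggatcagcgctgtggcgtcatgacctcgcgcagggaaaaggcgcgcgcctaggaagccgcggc
These windows hold 2 matches in Aurka, 3 in Ccnb2, 1 in Plk1, 1 in Pcna and 0 in Tk1. In the 250 bases before the start, on either strand, CCAAT was found in 11 of 13 promoters of mitotic genes (84.6%), 10 of 16 of S phase genes (62.5%) and 2 of 6 of G1 genes (33.3%), against 33.8% of all 32851 promoters in the table. These 35 promoters belong to 32 of the 38 genes; Aurkb, Ccna2, Ccnd1, Ccnd2, Foxm1 and Mcm4 were not in the table. The cell cycle genes homology region, spelled TTTGAA or TTCGAA, was in 7 of the 13 mitotic promoters (53.8%), 2 of the 16 S phase promoters (12.5%) and 0 of the 6 G1 promoters, against 17.1% of all. TTTCGCGC or TTTGGCGC, forms of the E2F site, were in Cdk1, Mcm5 and Mcm6 alone (8.57% of the 35, against 0.654% of all), and in Mcm5 and Mcm6 such matches overlapped each other. A match is a run of letters, not a measured site.

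GnRH at 100 nM went with lower signals of many of these genes after 4 h, and with a higher signal of Pcna. Over all 5 patterns of 100 nM against unstimulated (10 arrays against 2), 10 of the 33 tested genes passed limma's threshold of an adjusted p of 0.05, 9 lower and 1 higher. That is 30.3% of them, where 14.2% of all 8491 tested probe sets passed (7.84% lower, 6.37% higher). The lower genes were Cdk2 and Cdk4 of G1, Tk1 and Rad1 of S phase, and Aurka, Aurkb, Ccna2, Ccnb2 and Plk1 of mitosis. The median difference was -0.33 on the log2 scale over the G1 genes, -0.26 over the S phase genes and -0.41 over the mitotic genes, against -0.053 over all tested probe sets. Of the 9 falls 8 were under 2-fold, and that of Rad1 came to 2.18-fold. The count was 4 without unstimulated A, 2 without unstimulated D and 7 (1 higher, 6 lower) without the 3 arrays of high Gapdh ratio. Aurkb and Tk1 passed in each of the 20 fits that left out 1 array, and they were the pair left without unstimulated D.

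**Figure D1:**
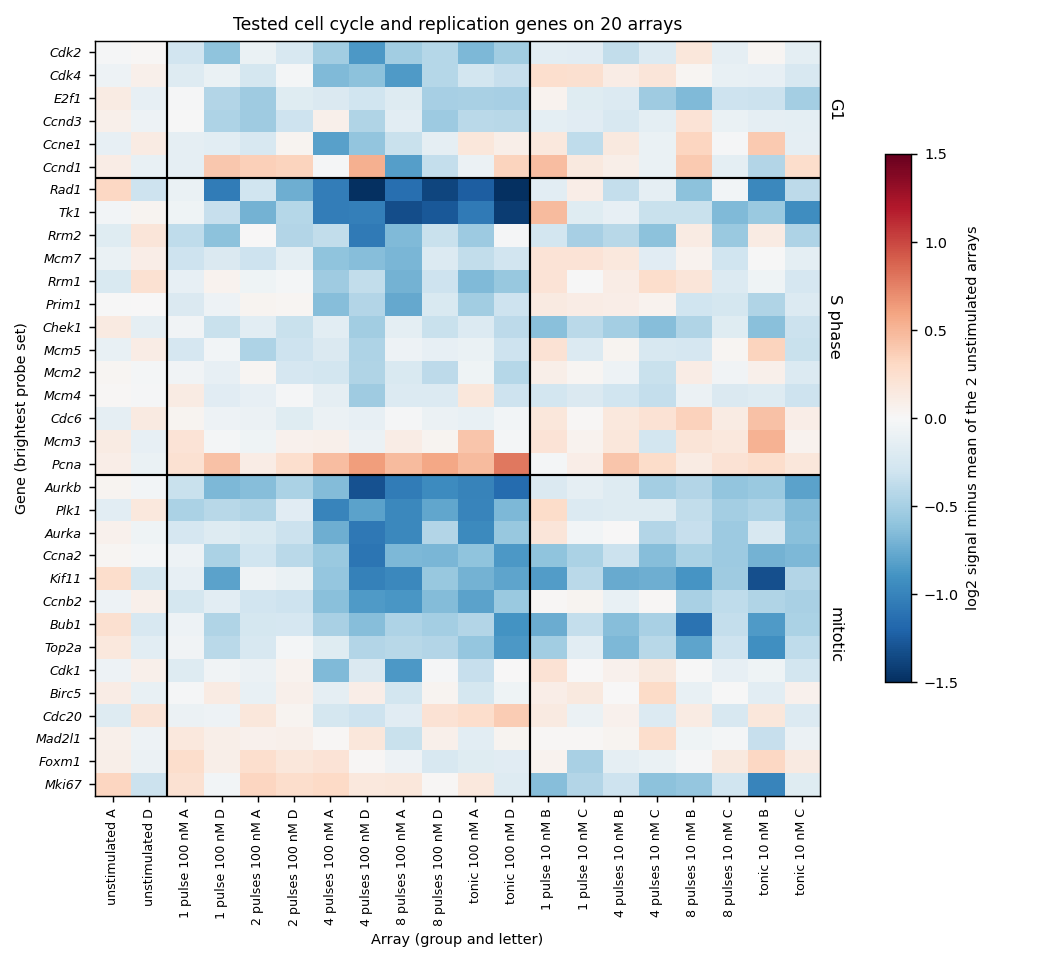
Heat map of the 33 tested genes (rows, ordered within G1, S phase and mitosis by their difference at 100 nM) on 20 arrays (columns, black lines between unstimulated, 100 nM and 10 nM). Colour is the log2 signal minus the mean of the 2 unstimulated arrays, cut at 1.5 either way; blue cells gather under 4 pulses, 8 pulses and tonic 100 nM for Tk1, Rad1, Aurkb, Plk1 and Ccnb2, and the row of Pcna is red there.

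Because unstimulated and 100 nM arrays share the letters A and D, each 100 nM array could also be set against the unstimulated array of its own letter. In that comparison 14 of the 33 genes were lower in all 5 patterns within both letters, a pattern met by 12.8% of all tested probe sets: Cdk2, Cdk4 and E2f1 of G1, Mcm7, Tk1, Chek1 and Rad1 of S phase, and Ccna2, Ccnb2, Cdk1, Plk1, Aurka, Aurkb and Bub1 of mitosis. Pcna alone was higher in all 5 patterns of both letters, where 9.27% of all probe sets were. Setting letters aside, 8 genes had every 100 nM array below both unstimulated arrays, as 7.89% of all probe sets did, and Pcna had every one above them, as 5.79% did. The unstimulated arrays differed from each other in Mki67, the Ki-67 antigen of dividing cells, with 27409.6 and 17587. Mki67 was lower in 5 of 5 patterns of letter A and in 0 of 5 of letter D, and the same held for Birc5, which encodes survivin, a partner of Aurkb.

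Among the G1 genes, the kinase genes Cdk2 and Cdk4 fell over the 100 nM patterns, and the cyclin genes did not pass there. Cdk2 (probe set 94412_at), the partner of cyclins E and A, read 2376 and 2432 on the unstimulated arrays. At 100 nM its signals were 1946 and 1529.7 after 1 pulse, 2231 and 2017 after 2 pulses, 1626 and 1249 after 4, 1628 and 1738 after 8, and 1446 and 1628 under tonic GnRH. Every 100 nM array lay below both unstimulated arrays, and the difference was -0.47 ± 0.14, adjusted p = 0.028. At 10 nM Cdk2 read 2130.4 and 2123 after 1 pulse, 1822 and 2069 after 4, 2715 and 2168 after 8, and 2464 and 2148 under tonic GnRH, which overlaps the unstimulated pair (-0.12 ± 0.14). Under quantile normalization the fall at 100 nM was -0.39 and did not pass, and without the arrays of high Gapdh ratio it was -0.41 and did not pass.

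Cdk4 (probe set 160538_at), the partner of the D cyclins, gave 13281 and 14875 without GnRH. With 100 nM it gave 12245 and 13114 after 1 pulse, 11708 and 13804 after 2 pulses, 8839 and 9107 after 4, 7728 and 10441 after 8, and 11593 and 11006 under tonic GnRH. The 2-pulse D array lay within the unstimulated range and the 1-pulse D array just below it, while the 6 arrays of 4 pulses, 8 pulses and tonic GnRH were the lowest (-0.38 ± 0.12, adjusted p = 0.0422 over all patterns). In the 10 nM groups it gave 16773 and 16603 after 1 pulse, 15166 and 15955 after 4, 14300.4 and 12967 after 8, and 12918 and 11852 under tonic GnRH. Those arrays lie on both sides of the unstimulated pair (0.041 ± 0.12). The call at 100 nM held in 8 of the 20 fits without 1 array, and with array medians set equal the difference was -0.35 and did not pass. The 3 lowest Cdk4 signals are on the arrays of high Gapdh ratio, and without them the difference was -0.26 and did not pass. A dimmer Cdk4 probe set differed by -0.27 and did not pass.

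Ccne1 (probe set 103034_at), cyclin E1, passed in 1 comparison, 4 pulses of 100 nM. It read 3531 and 4202 unstimulated and, at 100 nM, 3486 and 3427 after 1 pulse, 3247 and 3962 after 2 pulses, 2125 and 2496 after 4, 3019 and 3506 after 8, and 4354 and 4102 under tonic GnRH. The 4-pulse pair is the lowest of the series for this gene (-0.70 ± 0.21, adjusted p = 0.0326), and the tonic pair lies near the unstimulated values. At 10 nM the signals were 4326 and 2917 after 1 pulse, 4294 and 3579 after 4, 4869 and 3807 after 8, and 5113 and 3496 under tonic GnRH. Both 4-pulse arrays had a raised Gapdh ratio, and its part in this difference was not tested. The call was lost under quantile normalization (-0.57) and held in 16 of the 20 fits without 1 array. The remaining G1 genes did not pass over all 100 nM patterns: E2f1, the transcription factor, differed by -0.34 ± 0.16, the D cyclin genes Ccnd3 by -0.32 ± 0.16 and Ccnd1 by 0.052 ± 0.23. A dimmer E2f1 probe set, with a suffix that marks probes shared by a gene family, passed under tonic 100 nM (-0.82, adjusted p = 0.00891) where the brighter one did not (-0.50 ± 0.21, adjusted p = 0.0966). E2f1 signals ranged from 1638 to 2418 (median 1866) at 100 nM and from 1486 to 2553 (median 1946) at 10 nM, against 2687 and 2243 unstimulated. Those of Ccnd3 ranged from 2109 to 3342 (median 2337) at 100 nM and from 2656 to 3681 (median 2848) at 10 nM, against 3337 and 2999 unstimulated. The ranges of both genes at either dose include values above and below the lower unstimulated array. Ccnd1 ranged from 234 to 857 (median 629) at 100 nM and from 358 to 814 (median 603) at 10 nM, against 600.2 and 489.8 unstimulated.

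Of the S phase genes, Tk1 and Rad1 fell over the 100 nM patterns, Pcna rose, and the MCM helicase genes did not pass there. Tk1 (probe set 96081_at) encodes the cytosolic thymidine kinase of nucleotide salvage, and read 9365 and 9907 without GnRH. At 100 nM its signals were 9219 and 7537 after 1 pulse, 5840.5 and 7100.4 after 2 pulses, 4608 and 4662 after 4, 3727 and 3909 after 8, and 4531 and 3497 under tonic GnRH. All 6 arrays of 4 pulses, 8 pulses and tonic GnRH were below all 4 arrays of fewer pulses, and no 100 nM array reached the unstimulated pair (-0.87 ± 0.16, adjusted p = 0.00171, 1.83-fold lower). With 10 nM it read 13456 and 8472 after 1 pulse, 8860.0 and 7629.7 after 4, 7598 and 6027 after 8, and 6506 and 4952 under tonic GnRH. Here the B array of 1 pulse was above the unstimulated pair, and all other arrays were below it, tonic GnRH lowest by its mean. A dimmer Tk1 probe set moved the other way (0.88 ± 0.48) and did not pass.

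Rad1 (probe set 99005_at) encodes a subunit of the 9-1-1 clamp that senses damaged DNA. Its signals were 3079 and 1934 unstimulated and, at 100 nM, 2270.5 and 1092 after 1 pulse, 1964 and 1400.0 after 2 pulses, 1105 and 325 after 4, 1022 and 838 after 8, and 941 and 547 under tonic GnRH. The A arrays were above the D arrays in every group of 100 nM and in the unstimulated pair, and the groups overlap; the difference was -1.12 ± 0.30, adjusted p = 0.0168. With 10 nM the signals were 2169.7 and 2628 after 1 pulse, 1867 and 2205 after 4, 1532 and 2367 after 8, and 1168 and 1820.1 under tonic GnRH, and the C array was the higher of each pair. Within letters the mean difference at 100 nM was -1.07 in A and -1.18 in D. The array of 4 pulses D, at 325, was the lowest and below the limit for testing.

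Pcna (probe set 101065_at), the sliding clamp of replicative DNA polymerases, was the gene of the 33 that rose in this comparison. It gave 36196 and 31632 unstimulated and, at 100 nM, 39639.8 and 45925 after 1 pulse, 36437 and 40165 after 2 pulses, 46612 and 52274 after 4, 46933 and 50563 after 8, and 47133 and 58599 under tonic GnRH. All 10 arrays were above the unstimulated pair, although the 2-pulse A array only just (0.44 ± 0.12, adjusted p = 0.0155). At 10 nM it gave 33028 and 36245 after 1 pulse, 45201 and 40824 after 4, 36942 and 39438 after 8, and 40751 and 37955 under tonic GnRH, with 7 of the 8 above the unstimulated pair (0.19 ± 0.12, not past the threshold). The mean difference within letters was 0.25 in A and 0.63 in D. Under quantile normalization the difference at 100 nM was 0.15 and did not pass.

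**Figure D2:**
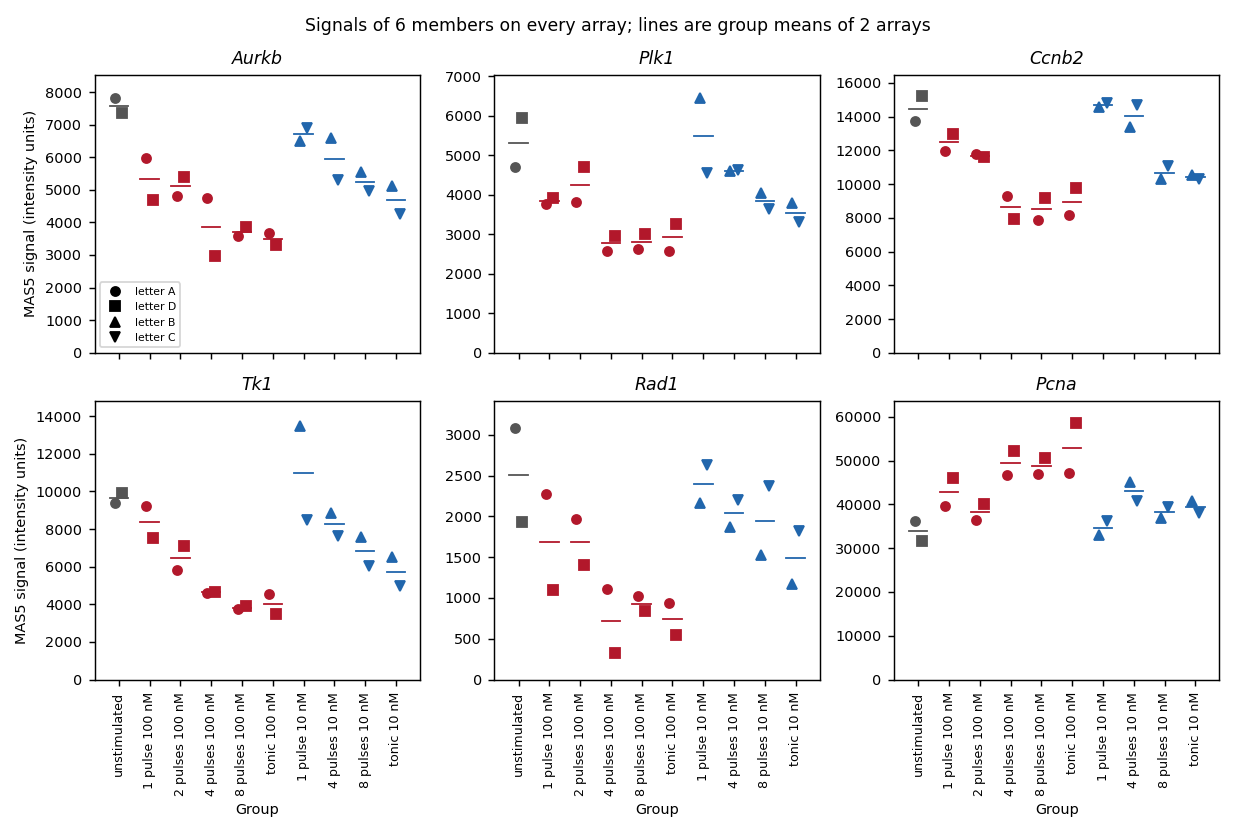
MAS5 signal (y axis, intensity units, from 0) of Aurkb, Plk1, Ccnb2, Tk1, Rad1 and Pcna in the 10 groups (x axis); symbols are arrays by letter and lines the mean of the 2 arrays of a group. In the first 5 the groups of 4 pulses, 8 pulses and tonic 100 nM (red) have the lowest means, with Aurkb at 2972 to 4749 against 7346 and 7811 unstimulated (grey), and in Pcna they have the highest.

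Mcm7 (probe set 93356_at), 1 of the 6 helicase subunits, read 12289.9 and 14193 unstimulated. At 100 nM it read 10599 and 11323 after 1 pulse, 10576 and 11936 after 2 pulses, 8669.6 and 8415 after 4, 8180.2 and 11409 after 8, and 10206 and 10815 under tonic GnRH, all below the unstimulated pair. Over all patterns it missed the threshold (-0.38 ± 0.14, adjusted p = 0.0715), but it passed for 4 pulses (-0.62 ± 0.17, adjusted p = 0.0243). The 10 nM arrays read 15301 and 15275 after 1 pulse, 14772 and 11702 after 4, 13742 and 10714 after 8, and 13156 and 11947 under tonic GnRH and overlapped the unstimulated pair. The other helicase genes did not pass against unstimulated in any pattern: over the 100 nM patterns Mcm2 differed by -0.22 ± 0.13, Mcm3 by 0.071 ± 0.15, Mcm4 by -0.14 ± 0.13 and Mcm5 by -0.24 ± 0.16.

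At 100 nM the signals of these helicase genes overlapped the unstimulated pair. Mcm2 ranged from 5973 to 8446 (median 6931) at 100 nM and from 6523 to 8930.4 (median 8202) at 10 nM, against 8400.0 and 8092 unstimulated. Mcm3 ranged from 12799 to 18209.9 (median 14081) at 100 nM and from 11166 to 19600.5 (median 15260.0) at 10 nM, against 14881 and 12426 unstimulated. These subunits form 1 ring with Mcm7. Mcm4 ranged from 7962 to 13098 (median 10448) at 100 nM and from 9070.3 to 10912 (median 9773) at 10 nM, against 11796 and 11469 unstimulated. Mcm5 ranged from 11073 to 14898 (median 13046) at 100 nM and from 12170.2 to 19385 (median 14519.9) at 10 nM, against 14234 and 16617 unstimulated. The highest 10 nM array of Mcm4 was below both unstimulated arrays, and that of Mcm5 was not.

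Rrm1 and Rrm2 encode the large and small subunits of ribonucleotide reductase, which makes deoxyribonucleotides. Rrm1 (probe set 100612_at) read 13140.4 and 18046 unstimulated and, at 100 nM, 14132 and 15937 after 1 pulse, 14687 and 15104 after 2 pulses, 10609.9 and 11854 after 4, 9390.3 and 12374 after 8, and 9656 and 10342 under tonic GnRH. It passed under tonic 100 nM (-0.62 ± 0.18, adjusted p = 0.0222). At 10 nM it read 17726 and 15345 after 1 pulse, 16635 and 18596 after 4, 17492 and 13391 after 8, and 14671 and 12868 under tonic GnRH, overlapping the unstimulated pair. Rrm2 differed by -0.44 ± 0.21 at 100 nM and did not pass; its lowest, median and highest signals were 2686, 4296 and 5811 there and 3700.5, 4229 and 6329 at 10 nM, against 5072 and 6583 unstimulated.

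Prim1 (probe set 96772_at), the catalytic subunit of primase, gave 6465 and 6540.5 without GnRH, nearly the same on both arrays. At 100 nM it gave 5556 and 6163 after 1 pulse, 6688 and 6645 after 2 pulses, 4128 and 4770.2 after 4, 3767 and 5548 after 8, and 4461 and 5232 under tonic GnRH. It was lower after 4 pulses (-0.53 ± 0.17, adjusted p = 0.0425), a call kept in 10 of the 20 fits without 1 array. The 10 nM arrays gave 7155 and 7048 after 1 pulse, 6978 and 6755 after 4, 5254 and 5369.9 after 8, and 4729 and 5623 under tonic GnRH, with 8 pulses and tonic GnRH below the unstimulated pair. Cdc6, which loads the helicase, differed by -0.075 ± 0.12 at 100 nM and 0.20 ± 0.12 at 10 nM. Chek1, the checkpoint kinase, differed by -0.26 ± 0.14 at 100 nM and -0.47 ± 0.15 at 10 nM, where all 8 arrays (lowest, median and highest 3522, 3968 and 4899.9) were below the unstimulated 6163 and 5079.9.

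Over the 100 nM patterns 5 of the 14 mitotic genes passed, all lower, where 14.2% of all probe sets passed (7.84% lower). Of the 6 G1 genes Cdk2 and Cdk4 passed, and of the 13 S phase genes Tk1, Rad1 and Pcna. Aurkb (probe set 98469_at) encodes the kinase of the chromosomal passenger complex, and read 7811 and 7346 without GnRH. At 100 nM its signals were 5982 and 4698 after 1 pulse, 4819 and 5399 after 2 pulses, 4749 and 2972 after 4, 3589 and 3846 after 8, and 3689 and 3316 under tonic GnRH, so that all 10 lay below the unstimulated pair (-0.82 ± 0.15, adjusted p = 0.00156, 1.77-fold lower). At 10 nM they were 6494 and 6909 after 1 pulse, 6578 and 5289 after 4, 5534 and 4958 after 8, and 5115 and 4268 under tonic GnRH. These 8 are below the unstimulated pair as well, and tonic GnRH had the lowest mean (-0.68 ± 0.20, adjusted p = 0.0405 for that pattern).

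Plk1 (probe set 101350_g_at), the polo-like kinase of mitotic entry, gave 4699.8 and 5934 unstimulated and, at 100 nM, 3753 and 3922 after 1 pulse, 3808 and 4688 after 2 pulses, 2583 and 2958 after 4, 2627 and 2999.6 after 8, and 2582 and 3262 under tonic GnRH. The 2-pulse D array came within a few units of the unstimulated A array, and the other 9 were lower (-0.67 ± 0.15, adjusted p = 0.00493). The 10 nM signals were 6446 and 4544 after 1 pulse, 4586 and 4616 after 4, 4048 and 3649 after 8, and 3795 and 3296 under tonic GnRH. The pair of 1 pulse overlaps the unstimulated pair and 8 pulses and tonic lie below. All 3 Plk1 probe sets have suffixes that mark shared probes, and the 2 dimmer ones fell too at 100 nM (-0.62 and -0.86).

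Ccnb2 (probe set 94294_at), cyclin B2, gave 13737 and 15189 without GnRH. At 100 nM its signals were 11981 and 12962 after 1 pulse, 11785 and 11591 after 2 pulses, 9319.9 and 7914 after 4, 7843 and 9152 after 8, and 8189 and 9737 under tonic GnRH. The 4 arrays of 1 and 2 pulses lay between the unstimulated pair and the 6 arrays of 4 pulses, 8 pulses and tonic GnRH, with no overlap (-0.54 ± 0.11, adjusted p = 0.00381). For 10 nM the signals were 14579 and 14817 after 1 pulse, 13386 and 14669 after 4, 10287 and 11059.8 after 8, and 10528 and 10291 under tonic GnRH, near the unstimulated level after 1 and 4 pulses and below it after 8 and under tonic GnRH.

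Ccna2 (probe set 99186_at), cyclin A2, which acts in S phase and in mitotic entry, read 7747 and 7417 unstimulated. With 100 nM it read 7181 and 5392 after 1 pulse, 6128 and 5667 after 2 pulses, 5085 and 3459.8 after 4, 4705 and 4665 after 8, and 4944 and 4096 under tonic GnRH. With 10 nM it read 4915 and 5401 after 1 pulse, 6054 and 4792 after 4, 5388 and 5135 after 8, and 4584 and 4699.6 under tonic GnRH. All 18 arrays with GnRH were below the unstimulated pair, with differences of -0.57 ± 0.14, adjusted p = 0.0119 at 100 nM and -0.56 ± 0.15, adjusted p = 0.0573 at 10 nM. The pattern at 10 nM shows little order by pulse number.

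Aurka (probe set 92639_at), the centrosomal Aurora kinase, gave 8380.1 and 7604 without GnRH and, at 100 nM, 6651 and 6971 after 1 pulse, 6767 and 6337 after 2 pulses, 4749.9 and 3712 after 4, 3993 and 5837 after 8, and 4027 and 5316 under tonic GnRH. All 10 were below the unstimulated pair (-0.57 ± 0.16, adjusted p = 0.0234). Under 10 nM it gave 9078 and 7724 after 1 pulse, 8025 and 5859.6 after 4, 6224 and 5441 after 8, and 6705 and 5108 under tonic GnRH, with 1 pulse within or above the unstimulated range and 8 pulses and tonic GnRH below it. Without the arrays of high Gapdh ratio the 100 nM difference was -0.43 and did not pass.

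Mki67 (probe set 99457_at) gave, at 100 nM, 25766 and 21395 after 1 pulse, 27391 and 26415 after 2 pulses, 27158 and 24457 after 4, 24744 and 22150.0 after 8, and 24519.9 and 19259 under tonic GnRH. All 10 were within the unstimulated range of 17587 to 27409.6. At 10 nM it gave 14081 and 16108 after 1 pulse, 17706 and 14288 after 4, 14638 and 17867 after 8, and 11010.5 and 19352 under tonic GnRH. Of these 8 arrays 5 were below the lower unstimulated array, and the comparison with unstimulated did not pass at 10 nM (-0.51 ± 0.19, adjusted p = 0.162). A dimmer Mki67 probe set differed by -0.27 at 100 nM and 0.058 between the doses, and did not pass.

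The other mitotic genes did not pass over all 100 nM patterns. Kif11, the spindle motor, differed by -0.57 ± 0.22, Bub1, a spindle checkpoint kinase, by -0.45 ± 0.18, Top2a, topoisomerase II alpha, by -0.36 ± 0.17, and Cdk1, the kinase of cyclin B, by -0.24 ± 0.17. Birc5 (-0.054 ± 0.13), Cdc20 (0.015 ± 0.14), an activator of the anaphase-promoting complex, Mad2l1 (0.018 ± 0.12), a checkpoint protein, and the transcription factor Foxm1 (0.035 ± 0.13) lay close to 0. Foxm1 had a dimmer probe set at -0.64 that did not pass. The brighter Foxm1 probe set has a suffix that marks shared probes, and the dimmer one has none. Lowest, median and highest signals of Kif11 were 2169, 2854 and 4396 at 100 nM and 1733, 2654 and 3402 at 10 nM, against 5519.6 and 3769.7 unstimulated. Those of Top2a were 8056, 11134 and 14535 and 7725, 10691 and 13317, against 16530.3 and 13292. In both genes the unstimulated arrays are far apart, with A the higher.

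Signals of the mitotic genes near 0 overlapped the unstimulated pair at each dose. Birc5 ranged from 9146 to 12074 (median 10755) at 100 nM and from 9930.5 to 13518 (median 11364) at 10 nM, against 11992 and 10230.0 unstimulated. Cdc20 ranged from 13735 to 22295 (median 16949) at 100 nM and from 14419 to 19285 (median 17048) at 10 nM, against 14919 and 19647 unstimulated. Mad2l1 ranged from 9401 to 13387 (median 12493) at 100 nM and from 9315 to 14371 (median 11909.7) at 10 nM, against 12560.5 and 11314 unstimulated. Of the next genes, Bub1 lay lowest against its unstimulated pair. Foxm1 ranged from 4342 to 6191 (median 5348) at 100 nM and from 3631 to 6434 (median 5206) at 10 nM, against 5468 and 4837 unstimulated. Cdk1 ranged from 11960.0 to 22744 (median 19912) at 100 nM and from 18146 to 25482 (median 21968) at 10 nM, against 20859 and 23066 unstimulated. Bub1 ranged from 4393 to 7873 (median 6016) at 100 nM and from 3767 to 6453 (median 5600.3) at 10 nM, against 9844 and 7023 unstimulated. For Bub1 all 8 arrays of 10 nM were below the unstimulated pair.

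**Figure D3:**
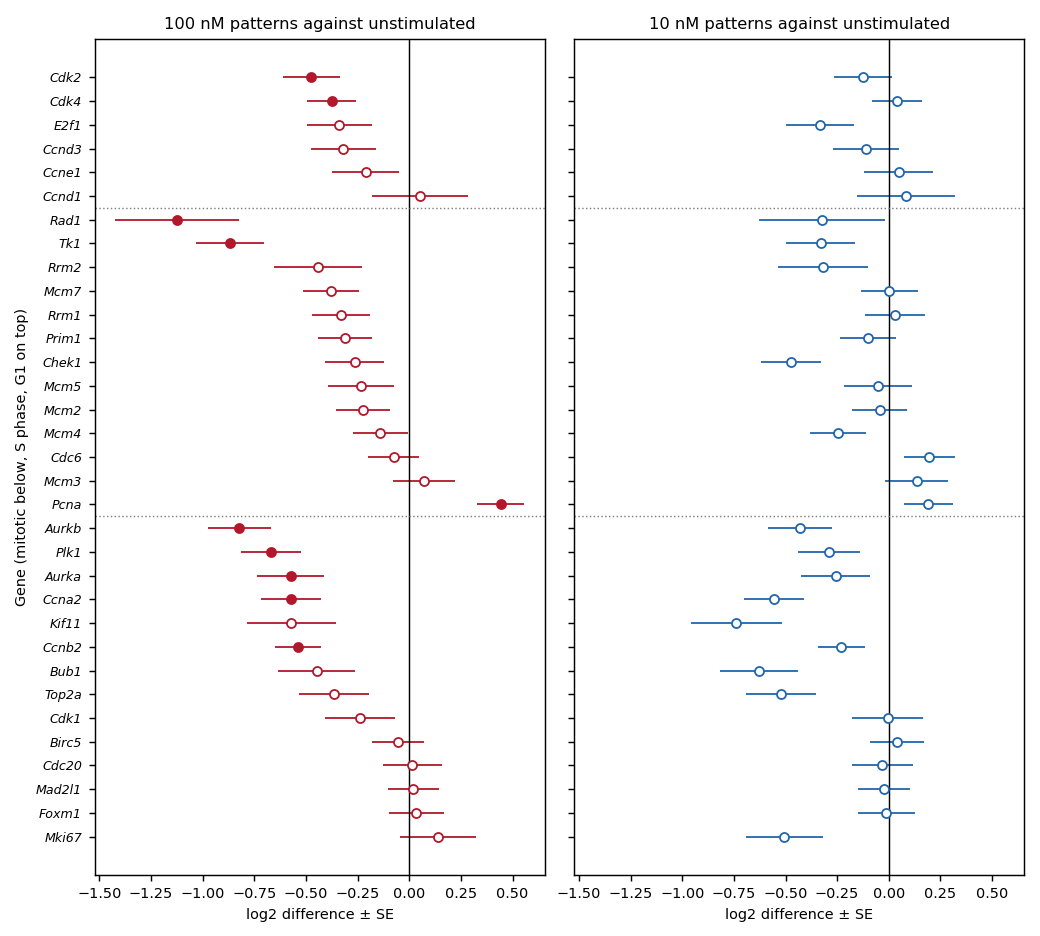
Log2 difference from unstimulated with its standard error (x axis) for the 33 tested genes (y axis, G1 at the top, then S phase, then mitosis) over the 100 nM patterns (left) and the 10 nM patterns (right); filled circles passed limma's threshold. The 10 filled circles are all at 100 nM, and Pcna is the only one to the right of 0.

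Pattern by pattern at 100 nM, 0 genes passed after 1 or 2 pulses and 9 to 13 after more. After 1 pulse 0 of the 33 genes passed in limma (0% of all probe sets; 4 genes and 7.82% of all probe sets had an unadjusted p under 0.05), with the smallest p for Aurkb (-0.50 ± 0.20), Cdk2 (-0.44 ± 0.18) and Plk1 (-0.44 ± 0.19). After 2 pulses 0 passed (0.624% of all; 2 genes and 9.1% of all had an unadjusted p under 0.05), led by Aurkb (-0.56 ± 0.20), Tk1 (-0.57 ± 0.21) and Ccnb2 (-0.30 ± 0.15). 

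After 4 pulses, after 8 pulses and under tonic GnRH, some genes of G1, of S phase and of mitosis passed. After 4 pulses 13 passed, 12 lower and Pcna higher (14.9% of all probe sets, 8.72% lower and 6.22% higher). The lower genes were Cdk2, Cdk4 and Ccne1 of G1, Tk1, Rad1, Mcm7 and Prim1 of S phase, and Aurka, Aurkb, Ccna2, Ccnb2 and Plk1 of mitosis, with the largest falls in Rad1 (-1.72 ± 0.39, adjusted p = 0.00704), Tk1 (-1.03 ± 0.21, adjusted p = 0.00411) and Aurkb (-0.98 ± 0.20, adjusted p = 0.00359). This count was 8 without unstimulated A, 6 without unstimulated D and 2 without 4 pulses D. After 8 pulses 9 passed, 8 lower and Pcna higher (14.3% of all, 7.76% lower and 6.55% higher): Tk1 (-1.30 ± 0.21, adjusted p = 0.000459), Ccnb2, Aurkb, Plk1, Cdk4, Ccna2, Aurka and Rad1. It was 4 without 8 pulses A, 3 without unstimulated D, and 5 without the arrays of high Gapdh ratio. Under tonic GnRH 11 passed, 10 lower and Pcna higher (20.4% of all, 11.8% lower and 8.59% higher): Tk1 (-1.24 ± 0.21, adjusted p = 0.000402), Aurkb (-1.08 ± 0.20, adjusted p = 0.000705), Ccnb2, Plk1, Rad1, Ccna2, Aurka, Rrm1, Top2a (-0.72 ± 0.22, adjusted p = 0.0236) and Cdk2. That count was 6 without unstimulated A and 5 without tonic D. A dimmer Bub1 probe set passed after 8 pulses (-0.74) and under tonic GnRH (-0.87), where the brighter one did not.

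The phase medians were lowest with 4 pulses or more. Over the 14 mitotic genes the median difference from unstimulated was -0.22 after 1 pulse of 100 nM, -0.11 after 2, -0.50 after 4, -0.46 after 8 and -0.68 under tonic GnRH. For the 13 S phase genes it was -0.15, -0.13, -0.37, -0.31 and -0.28, and for the 6 G1 genes -0.19, -0.16, -0.45, -0.41 and -0.36. The medians over all tested probe sets lay between -0.097 and -0.0095 in these comparisons.

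**Figure D4:**
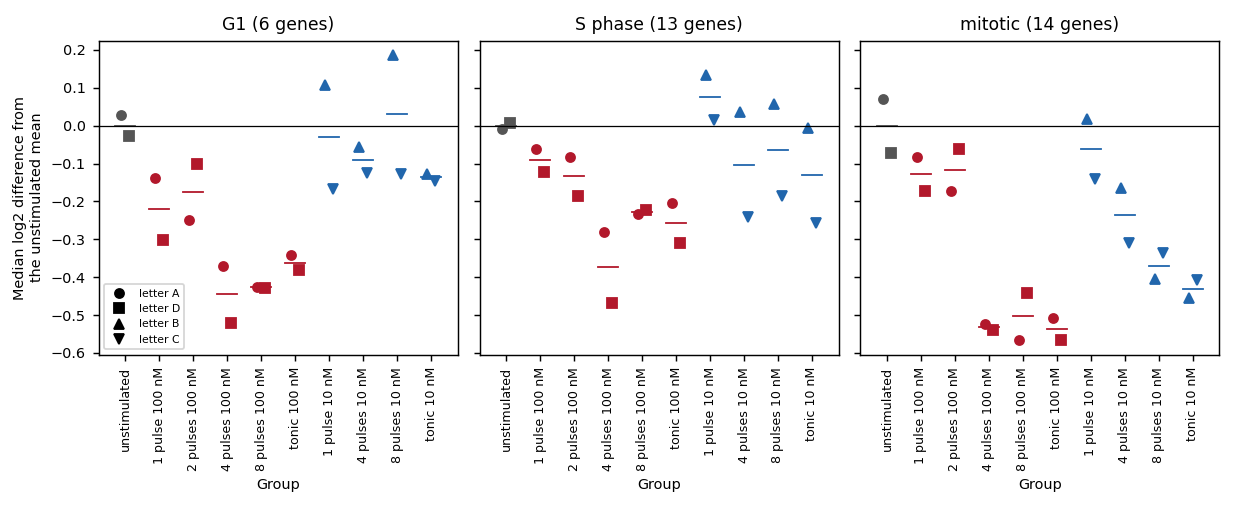
Median log2 difference of the tested genes of each phase from the mean of the unstimulated arrays (y axis), on each array of the 10 groups (x axis); symbols are arrays by letter and lines the mean of 2 arrays. The mitotic medians of 4 pulses, 8 pulses and tonic 100 nM (red) lie below those of 1 and 2 pulses, and at 10 nM (blue) the mitotic group means go down from 1 pulse to tonic GnRH.

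At 10 nM tonic GnRH gave the only calls. Dose and letter cannot be told apart here, since B and C arrays have no unstimulated array of their own. Over the 4 patterns (8 arrays against 2) 0 of the 33 passed in limma, where 1.91% of all probe sets did; 7 genes and 17.9% of all probe sets had an unadjusted p under 0.05. The smallest p belonged to Ccna2 (-0.56 ± 0.15, adjusted p = 0.0573), Kif11 (-0.74 ± 0.22, adjusted p = 0.0882) and Bub1 (-0.63 ± 0.19, adjusted p = 0.0898). Medians were -0.034 for G1, -0.052 for S phase and -0.27 for mitotic genes, against -0.054 over all probe sets. In 6 genes (Mcm4, Chek1, Ccna2, Aurkb, Bub1 and Kif11) every 10 nM array was below both unstimulated arrays, as in 8.03% of all probe sets, and in 0 genes was every one above them, as in 4.38%.

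After 1 pulse of 10 nM 0 genes passed (0% of all; 5 genes and 8.34% of all had an unadjusted p under 0.05), with the smallest p for Ccna2 (-0.54 ± 0.19), Chek1 (-0.52 ± 0.18) and Bub1 (-0.55 ± 0.24). After 4 pulses 0 passed (0.0589% of all; 6 genes and 13.1% of all had an unadjusted p under 0.05), led by Chek1 (-0.58 ± 0.18), Kif11 (-0.75 ± 0.28) and Ccna2 (-0.48 ± 0.19). After 8 pulses 0 passed (2.23% of all; 10 genes and 14.6% of all had an unadjusted p under 0.05), led by Bub1 (-0.73 ± 0.24), Ccnb2 (-0.43 ± 0.15) and Ccna2 (-0.51 ± 0.19). Tonic 10 nM GnRH gave 3 calls, all lower (7.41% of all, 3.52% lower): Ccna2 (-0.69 ± 0.19, adjusted p = 0.0305), Tk1 (-0.75 ± 0.21, adjusted p = 0.0369) and Aurkb (-0.68 ± 0.20, adjusted p = 0.0405). The count was 0 without unstimulated A, without unstimulated D or without tonic 10 nM B, and 0 without the intensity trend. A dimmer Bub1 probe set also passed under tonic 10 nM GnRH (-0.87, adjusted p = 0.0279), where the brighter one did not. The dimmer Tk1 probe set had the opposite sign to the brighter one there (1.59). The mitotic median was -0.076 after 1 pulse, -0.20 after 4, -0.44 after 8 and -0.51 under tonic GnRH.

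Pulse number was then tested as a trend, the change in log2 signal for each doubling of the number of pulses. RNA was taken at 4 h in each case, so pulse number goes with interval and with time since the last pulse. At 100 nM 3 of the 33 genes had a falling trend (6.89% of all passed, 3.22% falling): Tk1 (-0.37 ± 0.066, adjusted p = 0.00186), Ccnb2 (-0.21 ± 0.046, adjusted p = 0.0105) and Cdk4 (-0.20 ± 0.049, adjusted p = 0.0197). All 14 mitotic genes and all 6 G1 genes had a trend below 0, and 11 of 13 S phase genes, as did 59.7% of all probe sets. The count was 6 without 4 pulses A, 7 without 8 pulses D, 1 without 8 pulses A and 1 without 1 pulse D, and without the arrays of high Gapdh ratio Tk1 alone passed. A dimmer Plk1 probe set passed the trend at 100 nM (-0.24, adjusted p = 0.0199), where the brighter one did not, and the dimmer Tk1 probe set had a trend above 0. At 10 nM 0 passed (2.1% of all; 6 genes and 14.3% of all had an unadjusted p under 0.05), with Tk1 (-0.21 ± 0.069), Ccnb2 (-0.14 ± 0.048) and Plk1 (-0.15 ± 0.062) of smallest p. In a limma fit with fixed terms for letter, A against D and B against C, Tk1 passed at 10 nM (-0.21, adjusted p = 0.0228). That fit also gave falling trends past the threshold at 100 nM for Rrm1, Prim1, Rad1, Ccna2, Plk1, Aurka and Aurkb. The B and C groups met the rule for pairing given below, and the A and D groups did not. The trends at 100 and 10 nM share no array, and their difference passed for 0 genes (0.0118% of all; Foxm1 and Ccna2, and 4.83% of all, had an unadjusted p under 0.05).

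A constant supply was set against 8 pulses at each dose. At 100 nM 0 of the 33 genes passed in limma (0.0118% of all; 2 genes and 3.86% of all had an unadjusted p under 0.05), with the smallest p for Ccnd1 (0.71 ± 0.30, tonic higher), Cdk4 (0.32 ± 0.15) and Ccne1 (0.36 ± 0.21). The 8-pulse A array has the highest Gapdh ratio and the lowest Ccnd1 signal, 234. A dimmer Ccnd1 probe set went the other way, with 418.5 and 417.9 after 8 pulses and 350.8 and 333.0 under tonic 100 nM. At 10 nM that probe set read 417.1 and 448.2 after 8 pulses and 481.1 and 410.1 under tonic GnRH. At 10 nM 0 passed (0% of all; 0 genes and 2.59% of all had an unadjusted p under 0.05), with Tk1 (-0.25 ± 0.21), Mad2l1 (-0.18 ± 0.16) and Ccnd3 (-0.19 ± 0.20) of smallest p. The difference between doses of this comparison passed for 0 genes (0% of all; 2 genes and 2.13% of all had an unadjusted p under 0.05), led by Ccnd1 (0.92 ± 0.43), Cdk4 (0.46 ± 0.22) and Ccne1 (0.39 ± 0.30).

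The doses were compared over the 4 patterns given at both, 8 arrays against 8. Since 100 nM arrays carry the letters A and D and 10 nM arrays B and C, dose and letter cannot be told apart. Of the 33 genes 14 passed, 12 lower and 2 higher at 100 nM (23.6% of all, 12.7% lower and 10.9% higher). Among G1 genes Cdk4 (-0.47 ± 0.077, adjusted p = 0.000363) and Cdk2 (-0.43 ± 0.089) were lower at 100 nM. Among S phase genes Rad1 (-0.95 ± 0.19, adjusted p = 0.00188), Tk1 (-0.61 ± 0.11, adjusted p = 0.000532), Rrm1 (-0.43 ± 0.091), Mcm7 (-0.42 ± 0.087), Prim1 (-0.30 ± 0.085) and Cdc6 (-0.26 ± 0.079) were lower and Pcna (0.32 ± 0.075) higher. Plk1 (-0.47 ± 0.094), Aurkb (-0.46 ± 0.10), Aurka (-0.39 ± 0.10) and Ccnb2 (-0.37 ± 0.073) were lower, and Mki67 (0.61 ± 0.12, adjusted p = 0.00144) higher. The 100 nM signals of Mki67 were all within the unstimulated range, as given above, and 5 of the 8 at 10 nM were below it. Bub1 (0.13 ± 0.12), Top2a (0.10 ± 0.11), Ccna2 (-0.072 ± 0.093) and Kif11 (0.044 ± 0.14) did not pass. Without the arrays of high Gapdh ratio 7 genes passed, 5 lower and 2 higher.

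Genes that hold the cycle back were followed beside these. Of 24 listed inhibitors and checkpoint genes 20 were tested, and at 100 nM 7 rose and 3 fell, where 6.37% of all probe sets rose and 7.84% fell. Cdkn1a encodes p21, an inhibitor of Cdk2 and a partner of Pcna. It read 9025 and 8130.5 unstimulated and, at 100 nM, 17869 and 12741 after 1 pulse, 20802 and 13869 after 2 pulses, 30522 and 38591 after 4, 42077 and 35659 after 8, and 53713 and 51453 under tonic GnRH. The lowest of the 10 was above both unstimulated arrays, and the rise came to 1.70 ± 0.25, adjusted p = 0.000259. At 10 nM it read 11679 and 4917 after 1 pulse, 13340.5 and 16123 after 4, 29274 and 25978 after 8, and 47525 and 23391 under tonic GnRH, with the C array of 1 pulse below the unstimulated pair and 8 pulses and tonic GnRH far above it (1.05 ± 0.26, adjusted p = 0.0443). Its other probe set rose too, by 1.92 at 100 nM and 0.90 at 10 nM. The growth arrest and damage genes Gadd45b (1.79 ± 0.17, adjusted p = 1.92e-06) and Gadd45a (1.56 ± 0.18, adjusted p = 1.3e-05) and the antiproliferative gene Btg2 (1.42 ± 0.16, adjusted p = 1.68e-05) rose with it at 100 nM.

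Not all inhibitors rose. Cdkn2c (-0.80 ± 0.15, adjusted p = 0.00202) and Cdkn2d (-0.56 ± 0.12, adjusted p = 0.00322), which encode the Cdk4 inhibitors p18 and p19, fell at 100 nM. Signals of Cdkn2c were 11849.9 and 10618 unstimulated and 9119 and 9346 after 1 pulse, 8522 and 8853 after 2 pulses, 4987 and 4921 after 4, 4503 and 6207 after 8, and 3947 and 6299 under tonic GnRH at 100 nM. The 6 arrays of 4 pulses, 8 pulses and tonic GnRH were below the 4 of fewer pulses, and those 4 below the unstimulated pair. At 10 nM Gadd45b, Cdkn1a and Gadd45a passed over all patterns, all higher, where 1.91% of all probe sets passed. Rbl1, the retinoblastoma-like p107, fell under tonic 10 nM GnRH (-0.89 ± 0.25, adjusted p = 0.0346). Low Rbl1 signals were not limited to that group: they were 5301 and 4746 unstimulated, 2021 to 4312 at 100 nM and 2070.5 to 4621 at 10 nM. Counted over the 20 genes, 0 passed after 1 pulse of 100 nM (0% of all probe sets) and 1 rose after 2 pulses (0.624% of all passed). After 4 pulses 5 rose and 2 fell (6.22% and 8.72% of all), and after 8 pulses 7 rose and 4 fell (6.55% and 7.76%). Under tonic GnRH 7 rose and 4 fell at 100 nM (8.59% and 11.8% of all), and 4 rose and 1 fell at 10 nM (7.41% of all passed). The trend with pulse number rose for Cdkn1a at both doses, by 0.51 ± 0.10 for each doubling at 100 nM and 0.59 ± 0.11 at 10 nM.

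**Figure D5:**
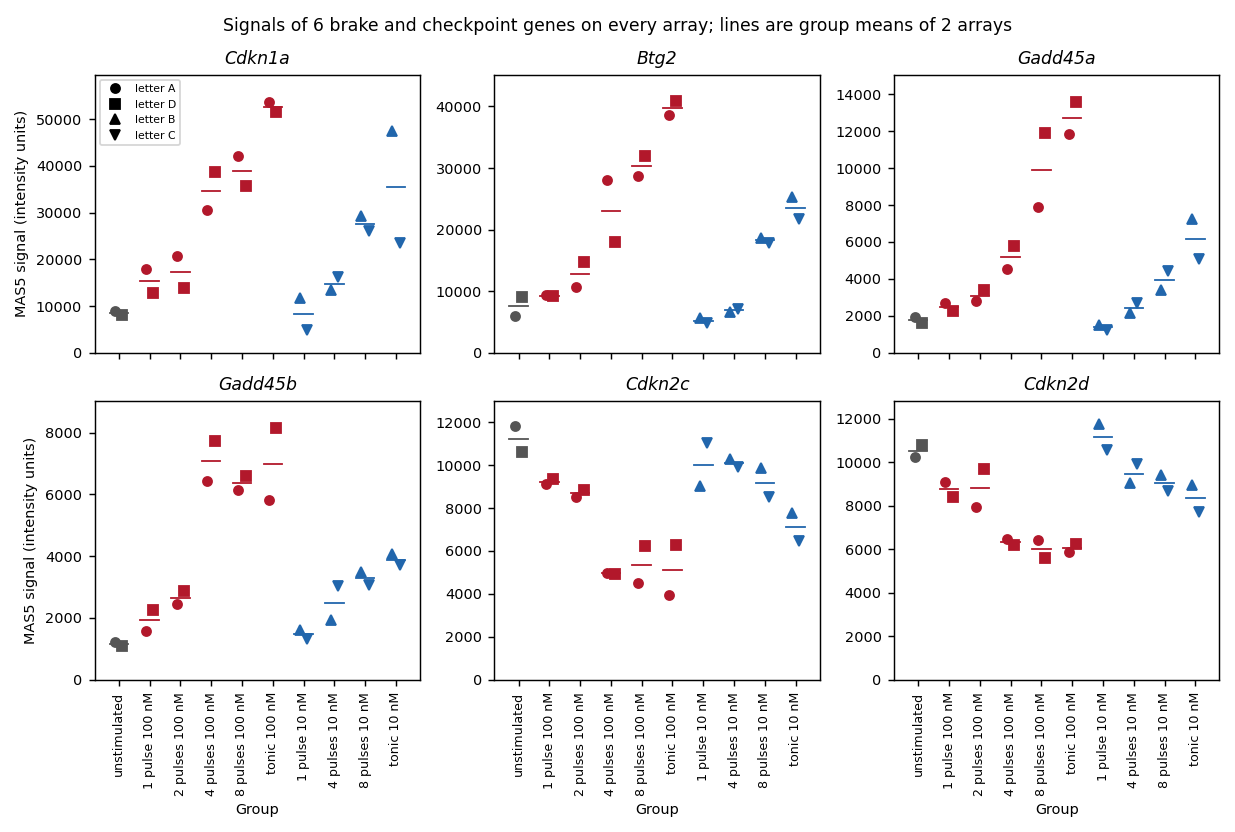
MAS5 signal (y axis, intensity units, from 0) of 6 genes that hold the cycle back or respond to damage, in the 10 groups (x axis); symbols are arrays by letter and lines the mean of 2 arrays. Cdkn1a, Btg2, Gadd45a and Gadd45b have higher means at 8 pulses and tonic GnRH than unstimulated at both doses, with Cdkn1a at 51453 to 53713 under tonic 100 nM, while Cdkn2c and Cdkn2d have lower ones.

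Of a wider list of 76 other cycle genes 61 were tested. Over the 100 nM patterns 11 fell and 0 rose (7.84% and 6.37% of all probe sets), with a median of -0.23 against -0.053 over all. Among them were Kif2c, a motor that depolymerizes microtubules (-0.71 ± 0.11, adjusted p = 0.000462), Racgap1 of the central spindle (-0.60 ± 0.13, adjusted p = 0.00429), Cdc45 of the replicative helicase (-0.81 ± 0.18, adjusted p = 0.00496), Rfc5 of the clamp loader (-0.80 ± 0.19), and the polymerase subunits Pole2 (-0.85 ± 0.21) and Pola2 (-0.66 ± 0.17). Rfc5 helps to load the clamp that Pcna forms, and the Pcna signal rose in the same comparison. After 1 and 2 pulses of 100 nM 0 of the 61 passed (0% and 0.624% of all probe sets). After 4 pulses 12 fell (8.72% of all probe sets), after 8 pulses 9 (7.76%) and under tonic GnRH 18 (11.8%). E2f3, named here after its value was seen, alone rose under tonic GnRH (0.66 ± 0.20, adjusted p = 0.0228), where 8.59% of all probe sets rose. At 10 nM 0 passed over all patterns (1.91% of all probe sets). Tonic 10 nM GnRH gave 1 call (7.41% of all, 3.52% lower), the spindle checkpoint kinase gene Ttk (-0.88 ± 0.21, adjusted p = 0.0151).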

How the data were processed

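The 20 Affymetrix arrays hold total RNA of LβT2 cells, 2 arrays a group. Per the submitters' processing notes the deposited values are MAS5 signals, that is linear intensity values per probe set, with no version given, and the sources used here do not name a scaling target. The trimmed means above show that the authors scaled the arrays to a common level. Array medians ran from 705 to 836 intensity units.

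Groups came from the titles. The log2 of signal plus 166.8 (the 25th percentile of the table) was taken, and probe sets above 427 (the 40th percentile) on at least 2 arrays were kept, 8491 of 12488 (66 control probe sets left out). One linear model with 10 groups was fitted in limma 3.58.1 under R 4.3.3 with an intensity trend (10 residual and 8.20 prior degrees of freedom), and p-values were adjusted by Benjamini-Hochberg over all tested probe sets within each of 18 comparisons, with a threshold of 0.05. The ± values are standard errors of log2 differences, which understate changes of low signals because of the added constant. The fit was tested on simulated arrays that varied independently, so that test does not cover arrays that deviate together by letter.

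The platform annotation gave 1 gene for 10855 probe sets and several for 396, and 1193 were not in it. A gene stands for its brightest tested probe set with 1 gene; dimmer ones are named where they disagree. The cell cycle genes and both other lists were chosen with earlier results of these data known, so their counts are descriptions. Signals on every array are given for genes past the threshold in any comparison, at most the 6 of smallest p in a phase; each comparison names the genes past the threshold, or the 3 of smallest p, and at most 6 from each other list.

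Letters may pair arrays. Deviations from the group means correlated at 0.130 to 0.345 in all 6 pairs of B and C groups, which met the rule for pairing (each over 0.1), and at 0.0797 to 0.320 in the 15 pairs of A and D groups, of which 14 did. Other normalizations, constants, filters, blocks, groupings and fits without 1 array were tried as alternatives. Promoter letters came from RefSeq on GRCm38.p6 by gene symbol.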

Additional observations from a re-analysis of the deposited data

How the results depend on the processing

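In each of 18 comparisons the count of genes called was refitted under 12 alternatives, in 20 fits without 1 array, and in 1 setting chosen after seeing the data (without the 3 arrays of highest Gapdh ratio, which leaves no array of 4 pulses of 100 nM). Apart from that added setting and the 2 differences between doses, 462 counts stayed within 1.5 times the main value and 50 did not. The 462 include counts of 0 in both fits. The main count was 0 after 1 or 2 pulses of 100 nM and after 1, 4 or 8 pulses of 10 nM. It was also 0 over the 10 nM patterns, for the 10 nM trend and for tonic GnRH against 8 pulses. A count of 0 that stayed 0 is no sign of stable calls. Groups taken from the other label gave 0 genes over the 100 nM patterns, after 4 and 8 pulses of 100 nM, under tonic 100 nM, under tonic 10 nM, for the trend at 100 nM and between the doses. The 12 arrays whose labels agree gave 0 over the 100 nM patterns, 0 after 4 pulses, 3 after 8 pulses, 1 under tonic 100 nM and 0 for the trend at 100 nM. That setting has 1 array in each 100 nM group and 1 unstimulated array, assumed to vary like the 10 nM groups of 4 and 8 pulses, which alone give the spread, so it is no check of stability. With the letter as a fixed replicate block the counts were 6 over the 10 nM patterns, 15 after 8 pulses of 100 nM, 1 after 4 pulses of 10 nM, 2 after 8 pulses of 10 nM, 10 under tonic 10 nM, 10 for the trend at 100 nM and 1 for the trend at 10 nM. With a random replicate block they were 14 after 8 pulses of 100 nM, 5 under tonic 10 nM, 10 for the trend at 100 nM and 1 for that at 10 nM. The block moved no other count by over 1.5 times. The stricter filter gave 1 over the 10 nM patterns and 5 under tonic 10 nM. Under tonic 10 nM quantile normalization gave 5, equal medians 1, no filter 1 and no intensity trend 0. Without the arrays of highest Gapdh ratio the counts were 1 over the 10 nM patterns, 5 after 8 pulses of 100 nM, 1 for the trend at 100 nM and 7 between the doses. Leaving out 1 array gave 2 to 12 over the 100 nM patterns, 0 to 1 over the 10 nM patterns, 2 to 14 after 4 pulses, 3 to 10 after 8 pulses and 5 to 12 under tonic 100 nM, 0 to 3 under tonic 10 nM, 1 to 7 for the trend at 100 nM and 13 to 16 between the doses. The sign turned, with no call, for genes under groups from the other label. Over the 100 nM patterns these were Cdk2 (0.078), Cdk4 (0.038), Pcna (-0.013), Rad1 (0.20), Ccna2 (0.079), Ccnb2 (0.034) and Aurka (0.052). After 4 pulses they were Rad1 (0.0018), Ccna2 (0.012), Ccnb2 (0.074) and Aurka (0.041), and after 8 pulses Pcna (-0.0028) and Rad1 (0.11). Under tonic 100 nM they were Cdk2 (0.076), Pcna (-0.042), Rrm1 (0.050), Rad1 (0.071), Ccna2 (0.095), Ccnb2 (0.0019) and Aurka (0.012), and under tonic 10 nM Aurkb (0.078). The dimmer Tk1 probe set turned the sign of Tk1, to 0.88 over the 100 nM patterns, 1.68 after 4 pulses, 0.72 after 8 pulses, 0.56 under tonic 100 nM, 1.59 under tonic 10 nM and 0.11 for the trend at 100 nM. The cause of each change was not tested, beyond the fewer arrays or genes that a setting leaves by construction.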
